A study of Mus musculus with 4 samples.

Results

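Transcripts of antioxidant enzymes were measured in young male mice of the C57BL/6J strain, in total RNA of the hippocampal dentate gyrus on single-channel oligonucleotide arrays. A probe set, the unit of measurement, was taken where the array annotation gave exactly 1 gene symbol and that symbol was among 10 listed enzymes. This gave 11 probe sets of 8 genes, out of 12422 probe sets, controls aside, of which 10833 are named by 1 of 8251 genes: 1 each for Sod1, Sod2, Gpx1, Gpx3, Gpx4 and Txn1, 2 for Cat and 3 for Prdx2. The remaining 2 genes gave none, because the 2 probe sets annotated to Prdx1 are annotated to another gene as well and no probe set used here is annotated to Prdx5. All 4 samples were controls that an experimenter had handled and not otherwise treated, with RNA taken 1, 2, 4 and 6 h after the final shock given to experimental mice. The shocked mice were not analysed here. There was 1 array an hour, and the number of mice behind each RNA is not given in the labels, so p-values rest on the spread between these 4 samples, which may be technical. A mean ± SD below runs over the 4 arrays (n = 4), and a single value has no replicate error.

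These enzymes form a relay. Superoxide dismutases turn superoxide, a by-product of mitochondrial respiration, into hydrogen peroxide, and catalase, the glutathione peroxidases and the peroxiredoxins then reduce the peroxide. Glutathione peroxidases draw electrons from glutathione and peroxiredoxins from thioredoxin, and both supplies are renewed with NADPH. Neurons of the hippocampus consume much oxygen and hold lipids that are easily oxidised, and many genes of this system can be induced by the transcription factor NRF2 through the antioxidant response element.

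The 2 enzymes whose 1 h value parted most from the later hours were Sod1 and Gpx3, and the bases before their start sites are shown because the results below turn on this pair. Each run holds the 250 bases before the RefSeq gene start on the + strand of GRCm38.p6, at chr16:90220512-90220761 for Sod1 and chr11:54902604-54902853 for Gpx3. Capitals mark matches, on either strand, to the TATA box (TATAAA), the CCAAT box (CCAAT), the GC box (GGGCGG) and the core of the antioxidant response element (TGACNNNGC).
Sod1: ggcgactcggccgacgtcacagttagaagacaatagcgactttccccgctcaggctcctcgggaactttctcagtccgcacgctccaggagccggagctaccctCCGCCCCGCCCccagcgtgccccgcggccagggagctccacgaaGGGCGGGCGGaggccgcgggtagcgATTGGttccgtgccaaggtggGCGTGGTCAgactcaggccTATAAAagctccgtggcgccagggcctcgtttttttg
Gpx3: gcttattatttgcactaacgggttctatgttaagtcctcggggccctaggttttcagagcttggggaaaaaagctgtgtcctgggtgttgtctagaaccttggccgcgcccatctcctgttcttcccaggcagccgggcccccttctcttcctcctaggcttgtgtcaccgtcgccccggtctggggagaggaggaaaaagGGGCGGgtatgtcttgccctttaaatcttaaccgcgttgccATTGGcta
The Sod1 run holds all 4 kinds of match, among them a TATA box that starts 37 bases before the gene start and an antioxidant response element core, on the opposite strand, that starts 56 bases before it. Its 4 GC box matches overlap in pairs. The Gpx3 run holds a GC box and a CCAAT box match and neither of the other kinds. Of 32851 RefSeq promoters cut to the same length, 12.4% hold the TATA box letters, 33.8% the CCAAT box, 32.7% the GC box and 10.2% the core of the antioxidant response element. All 10 listed genes have at least 1 promoter in that table, 13 in all, and the last of these motifs was found in 2 of the 13, those of Sod1 and Prdx1. A match is a run of letters and not a measured binding site.

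Probe sets were compared on the log2 scale after values under an intensity of 16.4 were set to that floor, and those with a mean log2 intensity of at least 6.66 were kept, 7453 in all. Of the 11 antioxidant probe sets 10 were kept. The dim one, Prdx2 probe set 100330_at, read 4.7, 8.2, 4.1 and 2.8 at 1, 2, 4 and 6 h, under the floor in every array. Intensity depends on the probes, so it does not rank transcript levels between genes.

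The 1 h array stood apart in RNA quality as well as in its values. For the Gapdh control the 3' probe set was 4.88 times as bright as the 5' one, against 1.13 to 1.33 in the later arrays, and for beta-actin this ratio was 2.51 against 1.83 to 2.20. The part that this plays in the differences at 1 h described below was not tested. Of markers of the dentate granule cell, 12 probe sets of 10 genes were measured and 10 probe sets were kept. None of the 12 was under the floor in all arrays, which held for every other cell type list as well. The granule cell sums of intensity ran from 7916 at 1 h to 8918 at 6 h. Of astrocyte, oligodendrocyte, microglial and interneuron markers, summed intensities spanned 96740 to 106392, 18877 to 26302, 10946 to 11951, and 28034 to 30530. Those of endothelial and CA pyramidal markers spanned 17453 to 20002 and 8507 to 10393. The 1 h sum was the lowest for oligodendrocyte, microglial, interneuron, CA pyramidal and granule cell markers and the highest for endothelial ones. Of 12 kept oligodendrocyte probe sets 8 were lowest and 1 highest at 1 h, against 30.4% and 35.4% of all kept probe sets. The median log2 difference of the 12 at 1 h from the other arrays was -0.349. In such bulk RNA, fewer cells of a type and less RNA per cell cannot be told apart.

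Sod1, the copper and zinc superoxide dismutase of the cytosol, was the enzyme highest at 1 h. The arrays of 1, 2, 4 and 6 h gave intensities of 8866, 3839.9, 4734 and 4442. The 1 h value stood above all of the others, and the later 3 lay within 1.23-fold of each other. The 1 h value was 2.05-fold the mean of those 3, taken on the log2 scale, a log2 difference of 1.04, which is above that of 98.4% of kept probe sets. Under the other scalings this difference was 1 and 0.99, so it lies at the edge of a 2-fold difference. The mean over all arrays was 5470 ± 2294 (SD, n = 4), and that of the 2, 4 and 6 h arrays 4338 ± 456 (SD, n = 3).

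Sod2, the manganese superoxide dismutase of mitochondria, was among the steadiest probe sets. It read 323, 346, 333 and 341 at 1, 2, 4 and 6 h, a mean of 336 ± 10.3 (SD, n = 4) and a coefficient of variation of 3.06%. The highest and the lowest array differed 1.07-fold. Its SD on the log2 scale, 0.044, was higher than that of only 1.2% of kept probe sets. Its lowest value was that of 1 h, with a log2 difference of -0.08 from the other arrays, where Sod1 had 1.04.

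Catalase, which breaks down hydrogen peroxide in peroxisomes, was measured by 2 probe sets. Probe set 160479_at read 192.5, 142.5, 189.9 and 171.8 at 1, 2, 4 and 6 h, and probe set 161877_f_at read 812, 592, 699 and 731. Both were highest at 1 h and lowest at 2 h, but only the first was higher at 4 h than at 6 h. Their highest and lowest arrays were 1.35-fold and 1.37-fold apart. The second carries the suffix of sets whose probes can match related sequences, so its level is less certain. Over the 2, 4 and 6 h arrays the first probe set still spanned 1.33-fold, the widest of the 10 kept members, since its low array was that of 2 h.

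**Figure D1:**
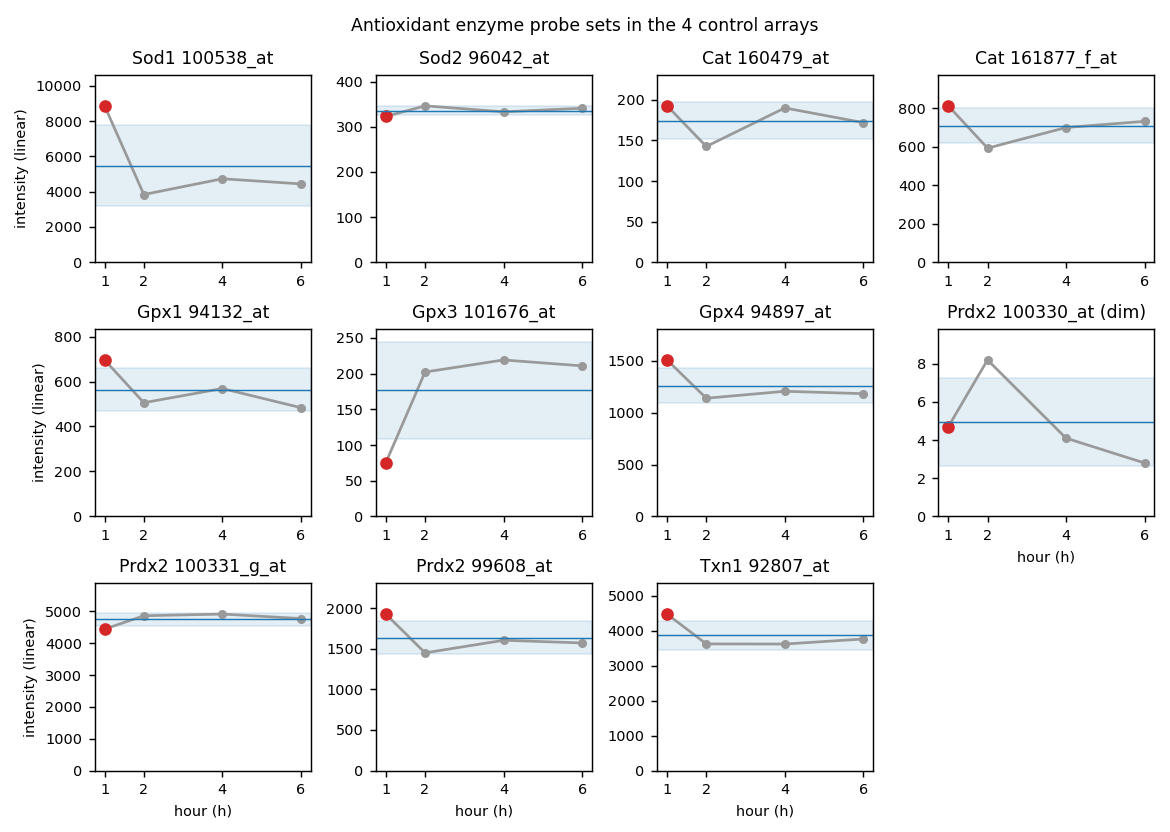
Intensity (linear axis from 0) of the 11 antioxidant probe sets against the hour of RNA collection, 1 array an hour, with the 1 h array in red. The blue line and band are the mean and SD over the 4 arrays: Sod1 reads 8866 at 1 h and 3839.9 to 4734 later, Gpx3 reads 75.3 at 1 h and 202.3 to 219.2 later, and the dim Prdx2 set reads at most 8.2.

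Of the glutathione peroxidases, Gpx3 stood opposite to Gpx1 and Gpx4. Gpx3, the secreted form known from blood plasma, read 75.3, 202.3, 219.2 and 210.9 at the 4 hours. The 1 h value was the lowest, while the later arrays lay within 1.08-fold of each other, at a mean of 210.8 ± 8.45 (SD, n = 3). The log2 difference of the 1 h array from the others was -1.48, the others being 2.8-fold higher, and 2.4% of kept probe sets had a lower one. Across all 4 arrays its mean was 177 ± 68.1 (SD, n = 4). Gpx3 rests on 1 probe set, at the 49.1st percentile of mean intensity, where the filter cuts at the 40th. Its 1 h value alone lies below that cut, so the later arrays carried it past the filter.

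Gpx1, the main glutathione peroxidase of the cytosol, read 696, 506, 569 and 484 at 1, 2, 4 and 6 h, with a mean of 564 ± 95.4 (SD, n = 4). It was highest at 1 h, 1.34-fold over the others, and it alone of the 10 was lowest at 6 h. Gpx4, which reduces oxidised lipids within membranes and guards against ferroptosis, read 1508, 1139, 1206 and 1183, with a mean of 1259 ± 168 (SD, n = 4). Gpx4 was 1.28-fold higher at 1 h, and its later arrays lay within 1.06-fold of each other. RefSeq also lists pseudogenes of Gpx4, and signal from near-identical transcripts cannot be told from that of the gene.

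Prdx2, a cytosolic peroxiredoxin abundant in neurons and erythrocytes, gave different orders on its 2 kept probe sets. Probe set 100331_g_at read 4445, 4865, 4917 and 4776 at 1, 2, 4 and 6 h, lowest at 1 h. Probe set 99608_at read 1927, 1449.7, 1604.5 and 1571.6, highest at 1 h. The log2 differences at 1 h were -0.13 and 0.32, so the direction of Prdx2 at that hour depends on the probe set, and pseudogenes of this gene are listed in RefSeq too. The SDs were 212 around a mean of 4751 and 204 around 1638 (n = 4 each), which are coefficients of variation of 4.46% and 12.4%. Of 7 erythrocyte marker genes with a probe set, the 8 probe sets summed to 4920, 4303, 5200 and 3848 at 1, 2, 4 and 6 h. The brightest, Hba-a1, an alpha globin chain, read 3154, 2469, 3397 and 1931. Hbb-b2, a beta globin chain, read 434.5, 422, 437 and 466, and Bpgm 881, 1030, 1018 and 1022. The sums rest largely on Hba-a1 and do not stand for every marker. None of the 8 was under the floor in all arrays, and the part of blood in the levels of Prdx2, Cat and Gpx1, which erythrocytes also make, was not tested.

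Txn1, the cytosolic thioredoxin that returns peroxiredoxins to their reduced form, read 4481, 3627, 3623 and 3767 at 1, 2, 4 and 6 h. Its mean was 3874 ± 409.9 (SD, n = 4). The 1 h array was 1.22-fold higher than the others, and the later values lay within 1.04-fold of each other.

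Every one of the 10 kept probe sets had an extreme value at 1 h, 7 the highest and 3 the lowest. Over all 7453 kept probe sets the 1 h array held the highest value in 35.4%, the lowest in 30.4% and either in 65.8%. The split of 7 and 3 was the same with arrays scaled to the same median or by quantiles, and was 6 and 2 of the 8 that a filter at the 60th percentile keeps. Over all kept probe sets the shares highest and lowest were 30.4% and 32.8% with the same median and 36.1% and 30.3% by quantiles. With that filter they were 36.1% and 32.2%. The 7 highest in the main setting were Sod1, both probe sets of Cat, Gpx1, Gpx4, Txn1 and 1 of Prdx2. The median log2 difference of the 10 at 1 h was 0.28, against 0.049 over all kept probe sets. These counts describe a single array, and the Gapdh ratio of 4.88 belongs to it.

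**Figure D2:**
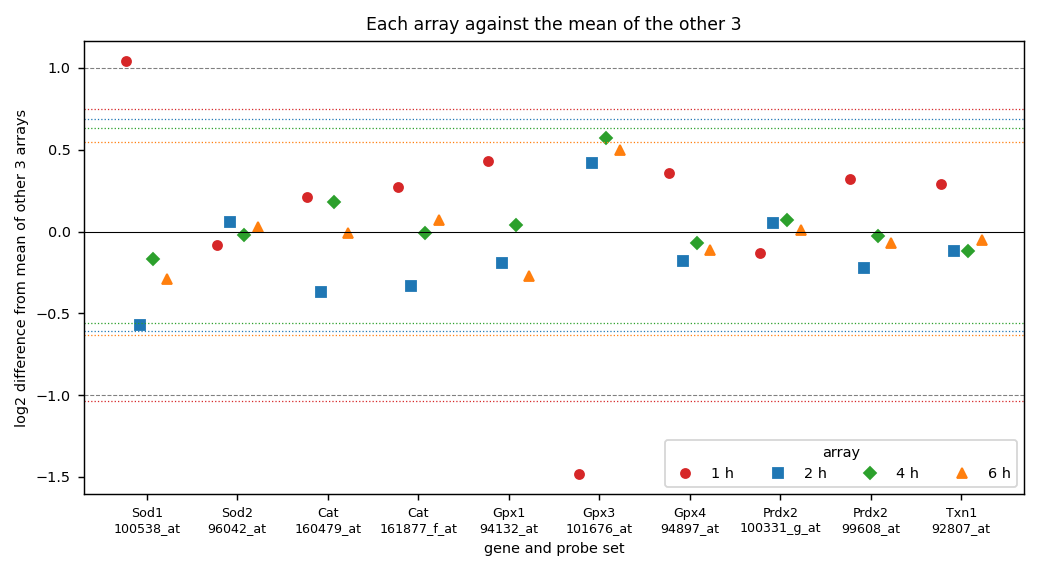
Log2 difference of each array from the mean of the other 3, for the 10 kept probe sets, with 1 symbol per array. Dotted lines are the 5th and 95th percentiles over all 7453 kept probe sets in the colour of the array (-1.04 and 0.75 at 1 h), and dashed lines mark 2-fold: at 1 h Sod1 lies above the upper lines at 1.04 and Gpx3 below the lower ones at -1.48.

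At 1 h, 2 of the 10 differed at least 2-fold from the mean of the other arrays, Sod1 higher and Gpx3 lower. Among all kept probe sets the shares at that hour were 7.08% either way, 1.8% higher and 5.29% lower. At 2, 4 and 6 h, 0 of the 10 differed that far, where 3.39%, 2.82% and 2.76% of all kept probe sets did. Highest and lowest array were at least 2-fold apart in the same 2 members and in 18.5% of all kept probe sets. Over the 2, 4 and 6 h arrays alone the corresponding numbers were 0 of the 10 and 8.22%. With 1 array an hour these differences have no test.

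Between the 2, 4 and 6 h arrays the highest and lowest values of the 10 lay from 1.03-fold to 1.33-fold apart. Their median SD on the log2 scale was 0.186 over the 4 arrays and 0.068 over the later 3, against 0.243 and 0.182 for all kept probe sets. Spread falls with intensity on these arrays, and 5 of the 10 lie at or above the 87.9th percentile of mean intensity, so the medians are not matched for brightness. All 10 had their extreme at 1 h, as had 65.8% of all kept probe sets, so leaving that array out narrows the range of each by construction. The SD of Cat probe set 160479_at over the later 3 was 0.21, above the median of all. Gpx3 shows the effect of the 1 h array most plainly: its SD was 0.744 with that array and 0.058 without it. For Sod1 the values were 0.533 and 0.155.

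**Figure D3:**
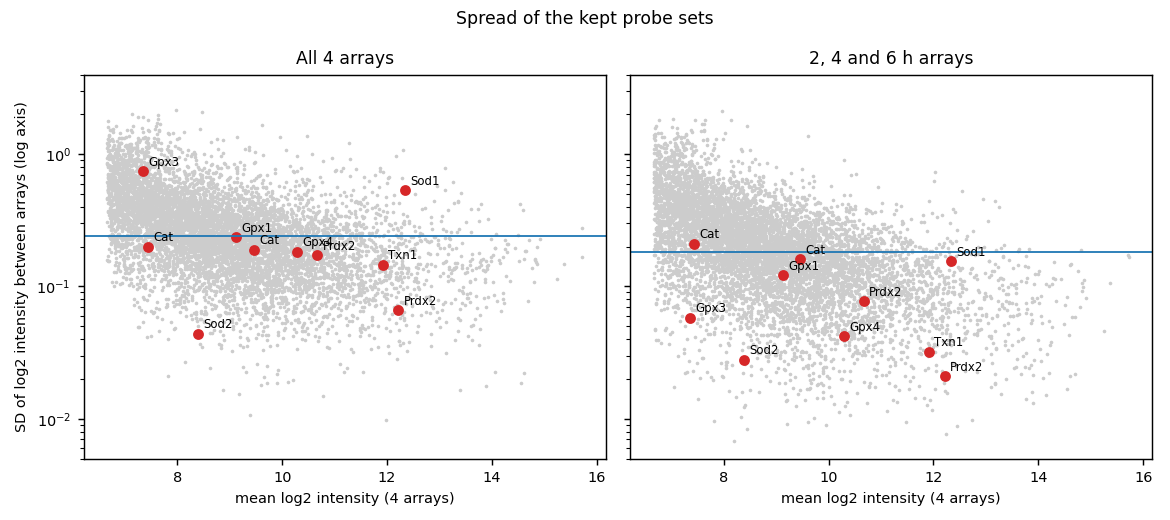
SD of log2 intensity between arrays (log axis) against mean log2 intensity for all kept probe sets (grey) and the 10 antioxidant ones (red, labelled by gene), over all 4 arrays on the left and the 2, 4 and 6 h arrays on the right. The blue line is the median of all kept probe sets, 0.243 and 0.182: Gpx3 moves from 0.744 on the left to 0.058 on the right, and Sod2 is low in both panels.

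A linear trend over the hours was fitted to all kept probe sets with limma. Of the 10 antioxidant probe sets 0 passed an adjusted p of 0.05, where 0.0134% of all kept probe sets did, and 0 had an unadjusted p under 0.05, where 4.4% did. That last count was 1 on the log2 of the hour and 2 without the 2 h array. Of the 7453 probe sets tested each time, 667 and 990 had such a p in those fits, against 328 in the main one. The slope of Gpx3 was the largest, 0.235 ± 0.129 (SE) log2 units per hour (limma adjusted p = 0.874), and that of Sod1 followed at -0.13 ± 0.087 (limma adjusted p = 0.874). Without the 1 h array these slopes were 0.015 and 0.0525. The other 8 lay between -0.074 for Gpx1 and 0.016 for Prdx2 probe set 100331_g_at. Slopes were below 0 in 6 of the 10, against 53.5% of all kept probe sets, and the medians were -0.017 and -0.006. In 0 of the 10 did the values run strictly upward or strictly downward over the hours, where 4.44% of all kept probe sets ran upward and 5.98% downward.

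Gpx3, the kept member with the largest SD, was compared with 6733 other kept probe sets by the root mean square difference between log2 values over the 4 arrays, each less its own mean. The nearest were Pdia6, a protein disulfide isomerase (102, 269, 305 and 278.5 at 1, 2, 4 and 6 h), and a probe set of beta-actin, Actb (1809, 4760.3, 5108 and 5183), both at 0.029. Cyb561, a cytochrome of secretory vesicles (0.037), Btbd3 (0.04) and Fdps, an enzyme of isoprenoid synthesis (0.043), came next. Each of the 5 was low at 1 h and near level later. For beta-actin this depends on the probe set. Its 3' control read 40300 at 1 h and 31200 to 33400 later, and its 5' control 16000 and 14500 to 18300. Likeness over so few arrays describes them only. Of 7 kept choroid plexus and ependymal markers, 4 were lowest and 1 was highest at 1 h, against 30.4% and 35.4% of all kept probe sets. The median log2 difference of the 7 was -1.04. Over all 14 probe sets of that list, intensities summed to 2928 at 1 h and 5161, 6374 and 8071 at 2, 4 and 6 h. Ttr (transthyretin) climbed at each hour from 225 to 444, 1258 and 3009, unlike the level later values of Gpx3. It was the 1 kept probe set of all 7453 past the trend threshold (limma adjusted p = 0.0232), and none passed without the 4 h or the 6 h array. Igf2 read 1501 at 1 h and 2876 to 3282 later. Igf2 and Ttr were the brightest of these markers, so the sums rest largely on them. The part of these cells in the Gpx3 values was not tested.

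Genes that act beside these enzymes were followed on 7 lists, and 0 of their 96 kept probe sets passed the trend test in either direction (limma; adjusted p at least 0.874). At an unadjusted p under 0.05 there were 6, or 6.25%, near the 4.4% of all kept probe sets. Over all kept probe sets, slopes were below 0 in 53.5%, and the 1 h array was highest in 35.4% and lowest in 30.4%. Of the other superoxide dismutase, peroxidase and peroxiredoxin genes, 11 probe sets were kept, 6 with slopes above 0. At 1 h none of the 11 was highest and 4 were lowest. Park7 (DJ-1, which protects neurons from oxidation) read 2650, 3052, 2728 and 3139 at 1, 2, 4 and 6 h, and Prdx3, the mitochondrial peroxiredoxin, 1472.5, 1975, 1897 and 1953. Prdx3 was lowest at 1 h, unlike Txn1. Prdx4, the peroxiredoxin of the endoplasmic reticulum, had the largest slope of that list, -0.125. Sod3, the extracellular dismutase, read 408, 319, 424 and 439.

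Thioredoxin and glutaredoxin genes kept 14 probe sets, 5 with slopes above 0. At 1 h 3 were highest and 6 lowest, against 35.4% and 30.4% of all kept probe sets. Txn2, the mitochondrial thioredoxin, read 1967, 2137, 2285 and 2080.4, and Txnl4a, a spliceosome protein with a thioredoxin fold, 2424, 2078, 2450.1 and 2379. Txnrd1, the reductase that renews Txn1, read 680, 916, 757 and 737. Txnip, which binds and inhibits thioredoxin, had the largest slope, -0.147, with 244, 254, 260.5 and 141. Its other probe set read 331, 437, 345 and 359.

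Genes of glutathione synthesis, recycling and transfer kept 26 probe sets, 8 with slopes above 0. At 1 h 9 were highest and 5 lowest, against 35.4% and 30.4% of all kept probe sets. The brightest were the transferases Gstm5 (17429, 13687, 15985 and 15730) and Gstm1 (10634, 10383, 10935 and 9948), both on probe sets that can match other members of the family. Gclc, the catalytic subunit of the first step of glutathione synthesis, read 618, 477, 506 and 491, and Gsr, which renews glutathione, 783, 733, 766 and 585. Gss, which completes glutathione, had the largest slope, -0.383, on a probe set that read 170.1, 267, 209 and 47.5, while its other probe set read 522, 719, 435.5 and 576.

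NRF2 regulators and targets kept 21 probe sets, 11 with slopes above 0. At 1 h 11 were lowest and 6 highest, where 30.4% and 35.4% of all kept probe sets were. Nfe2l2, the gene of NRF2 itself, read 433, 319, 352 and 363, and Hmox1, the inducible heme oxygenase, 650.2, 637, 640.2 and 626. Keap1, which marks NRF2 for degradation, was dim at 21.3 to 38.9, as was Nqo1, a quinone reductase and standard NRF2 target, at 12.5 to 96.2 over its 2 probe sets. Fth1, the ferritin heavy chain that stores iron, read 14342, 18839, 17474 and 15735 on its brighter probe set and 7975, 5928.5, 5674 and 6239 on the other. Sqstm1, an adaptor that can release NRF2, had the largest slope, 0.168, and read 1520.2 at 1 h and 2818 to 3107 later.

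NADPH supply genes kept 7 probe sets, 4 with slopes above 0, and 3 were highest and 2 lowest at 1 h. Me1, the cytosolic malic enzyme, read 1191, 664.5, 673 and 774, Pgls 813, 638, 806 and 759, and Idh2, a mitochondrial isocitrate dehydrogenase, had the largest slope at 0.162. Selenoprotein genes, which share with Gpx1, Gpx3 and Gpx4 the insertion of selenocysteine, kept 9 probe sets, 3 with slopes above 0. These 9 cover 7 genes. Of the 9, 7 were highest and 1 was lowest at 1 h, with a median log2 difference of 0.27. All kept probe sets had 35.4%, 30.4% and 0.049. This difference has no test. Selenoproteins placed elsewhere did not all go that way. Txnrd1, Txnrd2, Msrb1 and the kept probe set of Txnrd3 were lowest at 1 h, with log2 differences of -0.23, -0.26, -0.2 and -0.21. Gpx3 was lowest too, at -1.48, while Gpx1 and Gpx4 were highest. Gpx2 was neither, at 0.02. Selenof read 7410.2, 5892, 6100.1 and 5736 on its brighter probe set, and 2898, 2469, 2857 and 2927 on the other, which was highest at 6 h. Selenot read 5660.3, 3703, 3653 and 3369, and Selenos, which had the largest slope at -0.174, 597, 422, 352.5 and 308.5. Sources of superoxide and peroxide kept 8 probe sets, 1 with a slope above 0, and 3 were highest and 3 lowest at 1 h. They were led by Ero1a, an oxidase of the endoplasmic reticulum (1047, 1335, 1088 and 1085), and Dao, a peroxisomal oxidase, had the largest slope at -0.334. Cybb, the catalytic chain of the phagocyte NADPH oxidase, was dim at 12.3 to 140.2.

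**Figure D4:**
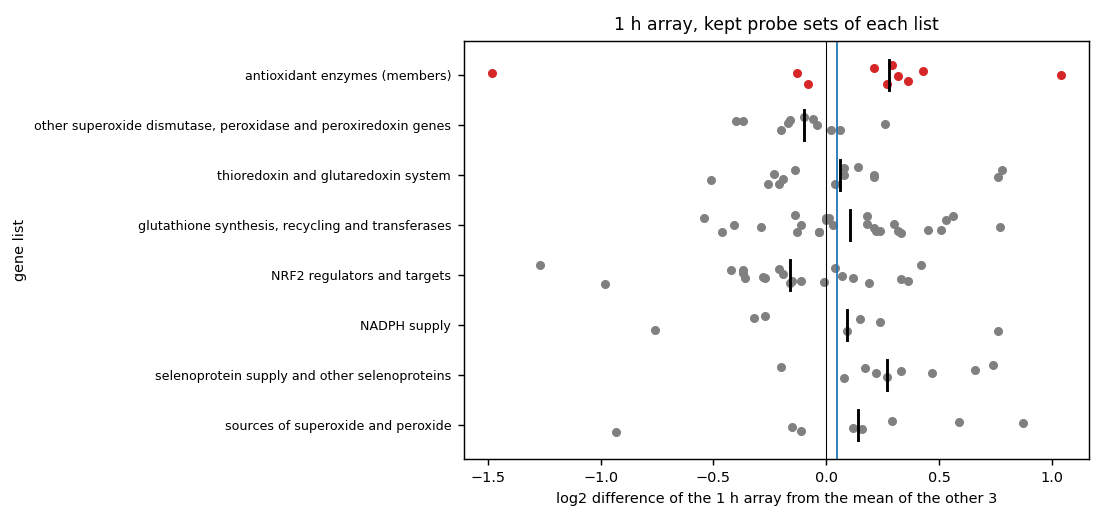
Log2 difference of the 1 h array from the mean of the other 3 for each kept probe set (points, spread vertically only for display) of the antioxidant enzymes (red) and of the 7 lists (grey). Black bars are the medians and the blue line is the median of all kept probe sets, 0.049: the antioxidant enzymes have a median of 0.28 with Sod1 and Gpx3 at the ends, and the selenoprotein list has 0.266.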

How the data were processed

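Total RNA of 4 control samples, 1 each at 1, 2, 4 and 6 h, was measured on single-channel arrays. The table that the authors deposited holds linear intensity values. The sources used here name no software, scaling or genome build. In each array the mean of all rows without the top and bottom 2% was 500.3, so a difference in total RNA does not show. Of 12488 rows, the 66 of control probe sets entered no test.

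Probe sets were named by GEO's platform annotation, and old symbols were replaced by Entrez identifier from the RefSeq table of GRCm38.p6. Exactly 1 gene named 10833 probe sets. Values under the 10th percentile (16.4) were set to it, log2 was taken, and probe sets at or above the 40th percentile of mean log2 intensity (6.66) were kept, 7453 in all. A line over the hours was fitted in R 4.3.3 by limma 3.58.1 (lmFit, eBayes with a trend on intensity, 2 residual degrees of freedom). Tests were two-sided, with Benjamini-Hochberg adjustment over 7453. The fit was tested on simulated data with independent noise in each value. Those data held no shared shift of 1 array, so they do not cover an array that stands apart as that of 1 h does. Differences between arrays are descriptions. Promoters were those of RefSeq, GRCm38.p6, without the bases after the start.

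The enzymes, lists and tests were chosen with earlier results of these data known. Named genes were all member probe sets, and of each list the 2 brightest and, for pathway lists, the largest slope. Sod3, Gpx2, Txnrd1, Txnrd2, Txnrd3, Msrb1, Gclc, Gsr, Nfe2l2, Hmox1, Keap1, Nqo1, Cybb and Hbb-b2 were chosen after their values were seen. So were the other probe sets of Txnip, Gss and Selenof and the 2 promoters shown. Other filters, floors, scalings, time scales and variance priors were tried, and each array was left out in turn. The number of arrays limits the precision.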

Additional observations from a re-analysis of the deposited data

Results flagged for a closer look

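Among the 55 probe sets named by rule, 13 had a highest or lowest array separated from the nearest other by a larger part of the log2 range than Dixon's critical value, which chance gives in about 1 of 20. Leaving out 5 that were picked for their likeness to Gpx3, 8 of 50 had such an array, in 5 of the 8 a low one at 1 h. Over all 7453 kept probe sets 8.63% had one. The 50 are not an unselected set, as some were named for the largest slope of their list. Sqstm1 and a Txnip probe set, both among the 8, were named so. Of the antioxidant enzymes only Gpx3 had such an array, at 75.3 at 1 h against 202.3 to 219.2 later. The 5 probe sets nearest to Gpx3 in pattern follow from that choice: Actb at 1809, Btbd3 at 438.5, Cyb561 at 150, Fdps at 541 and Pdia6 at 102, each at 1 h. Prdx3, the mitochondrial peroxiredoxin, was low at 1 h at 1472.5, and Sqstm1 at 1520.2. Among cell type markers, the choroid plexus marker Igf2 was low at 1 h at 1501 and the erythrocyte marker Bpgm at 881, while the endothelial marker Eng was high at 1252. Ero1a was high at 2 h at 1335, and Txnip was low at 6 h at 140.9 on 1 of its probe sets.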

How the results depend on the processing

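The number of antioxidant probe sets past the trend threshold was 0 under each of the 12 alternatives, as was that of the 7 lists. Of all probe sets tested, 0 passed in 5 of the 12 and 1 in the other 7, so these zeros say nothing about stability. The lowest limma adjusted p of a member was 0.217, without the 2 h array. At 1 h the number at least 2-fold from the other arrays was 1 in place of 2 with arrays scaled to the same median, with quantile normalization (Sod1 at 1 and 0.99) and with the filter raised to the 60th percentile, which drops Gpx3, and 1 to 2 with an array left out (1 without the 2 h array). The number with a 2-fold span was 1 with that filter, and 0 to 2 with an array left out, 0 without the 1 h array and 1 without the 2 h array. Over all kept probe sets the share with such a span was 18.5% in the main setting and 8.11% with that filter. It was 7.92%, 13.4%, 14.4% and 14.1% without the 1, 2, 4 and 6 h array. The 1 h differences of single members kept their sign under both other scalings and without the 2, 4 or 6 h array, and moved by at most 0.12 on the log2 scale, for Cat 160479_at from 0.21 to 0.09 without the 2 h array. Of 118 slopes under alternatives, 13 changed sign, each from a slope that had not passed. For Cat, 160479_at gave -0.00902 on the log2 of the hour, and 161877_f_at 0.0199 with arrays scaled to the same median and 0.0445 for late against early hours. With an array left out, slopes ranged from -0.0308 to 0.0674 and from -0.0444 to 0.076 for these 2, -0.237 to 0.0525 for Sod1, -0.00556 to 0.0159 for Sod2, -0.0862 to 0.0137 for Gpx4, -0.0877 to 0.0137 for Txn1, -0.00661 to 0.0427 for Prdx2 100331_g_at and -0.0651 to 0.0291 for 99608_at. Gpx1 and Gpx3 kept their sign. The cause of these changes was not tested. The settings of the count of extremes at 1 h were chosen after seeing the data.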
